A study of Danio rerio with 12 samples.

Results

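MicroRNAs of zebrafish embryos at 24 hpf (hours post fertilization) were compared between a library titled Endo, of endothelial cells, and a library titled NoEndo. These are 2 of 12 small RNA libraries, chosen by their titles, with 1 library a side, so every ratio has a counting interval but no test, no p-value and no replicate check of its own. Both libraries are labelled as GFP-positive cells sorted by FACS (fluorescence-activated cell sorting) from transgenic fish raised at 28 °C and dissociated with Liberase, an enzyme mix, before Trizol extraction. The promoter that drives GFP, the transgenic line and the number of embryos pooled were not stated. The tissue, source and stain labels of the NoEndo library also read as endothelial and GFP. The contrast therefore rests on the titles, and the cell types in the NoEndo sort are unknown here. The later libraries set beside this pair come from the same 2 title populations at 48 hpf (2 replicates of each), 72 hpf (replicate 2 of each) and 6 dpf (days post fertilization, 1 of each). Replicate 1 at 72 hpf was left out because its files under both titles hold identical values.

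MicroRNAs are short RNAs, cut as a 5p or a 3p arm from a hairpin precursor, that guide Argonaute proteins to messenger RNAs and lower their translation and stability. At about a day of development the main axial vessels of the zebrafish have formed, circulation has begun, and many organs, liver and gut among them, have not yet differentiated. Endothelial cells line those vessels, and miR-126, which in mammals lies in an intron of the endothelial gene Egfl7, is their best known microRNA marker. The miR-126 family is needed for vessel integrity in zebrafish.

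The Endo library held 324476 reads on mature microRNAs and the NoEndo library 643870, which were 11.2% and 17.5% of a larger library total that the file headers do not define. Levels are given in CPM, counts per 1000000 summed microRNA counts of a library. With 3 counts as the limit, a microRNA at 0 could still reach 9.25 CPM in Endo and 4.67 CPM in NoEndo. Of 326 microRNA names in the series, 303 were listed at 24 hpf, 275 in Endo and 298 in NoEndo, and 228 reached a mean of 20 CPM over both libraries and are described below. Those 228 held at least 99.9% of the counts of each library. Of them, 23 were under 20 CPM in Endo and 12 in NoEndo, so they passed through the library where they were high and had to differ. Intervals are exact conditional binomial intervals at 95% and cover counting error only, since reads without molecular identifiers are not independent molecules. In sorted bulk samples, fewer cells of a type and less RNA per cell cannot be told apart.

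Endo and NoEndo shared most of their microRNA content at 24 hpf. The sum over microRNAs of the smaller of both shares was 77.5%. The 10 most abundant microRNAs held 75.0% of Endo and 70.9% of NoEndo counts, and 8 of them were the same. miR-430b-3p, whose family directs the decay of maternal messenger RNAs in the early embryo, led in Endo with 27.7% of counts against 18.9% in NoEndo. miR-92a-3p, of the proliferation-linked miR-17-92 family, led in NoEndo, with 19.9% of counts in Endo and 23.6% in NoEndo. The largest gains in share after miR-430b-3p were those of a pair of vascular microRNAs that share a seed. miR-222a-3p held 9.43% of Endo and 4.89% of NoEndo counts, and miR-221-3p, which vessel sprouting in zebrafish depends on, held 5.89% of Endo and 2.97% of NoEndo counts. The reads of miR-221-3p come from 2 copies, 1 of them beside miR-222a on chromosome 9, and were not assigned to either. Both ratios stayed just inside 2-fold, at 1.93 (interval 1.90 to 1.96) and 1.98 (1.94 to 2.02). That side of 2-fold depends on the scaling. With DESeq2 size factors the log2 ratios were 1.25 and 1.29, and with miR-430 left out of the total 1.12 and 1.16, all past 2-fold. Scaled to the larger library total they were 0.31 and 0.35. The largest losses were in miR-204-5p, an eye microRNA with 0.460% of Endo against 4.36% of NoEndo counts, and miR-205-5p, a skin microRNA with 2.54% against 6.32%. In all, 4 microRNAs had a share in Endo larger by 1 percentage point or more, and 5 a smaller one.

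**Figure D1:**
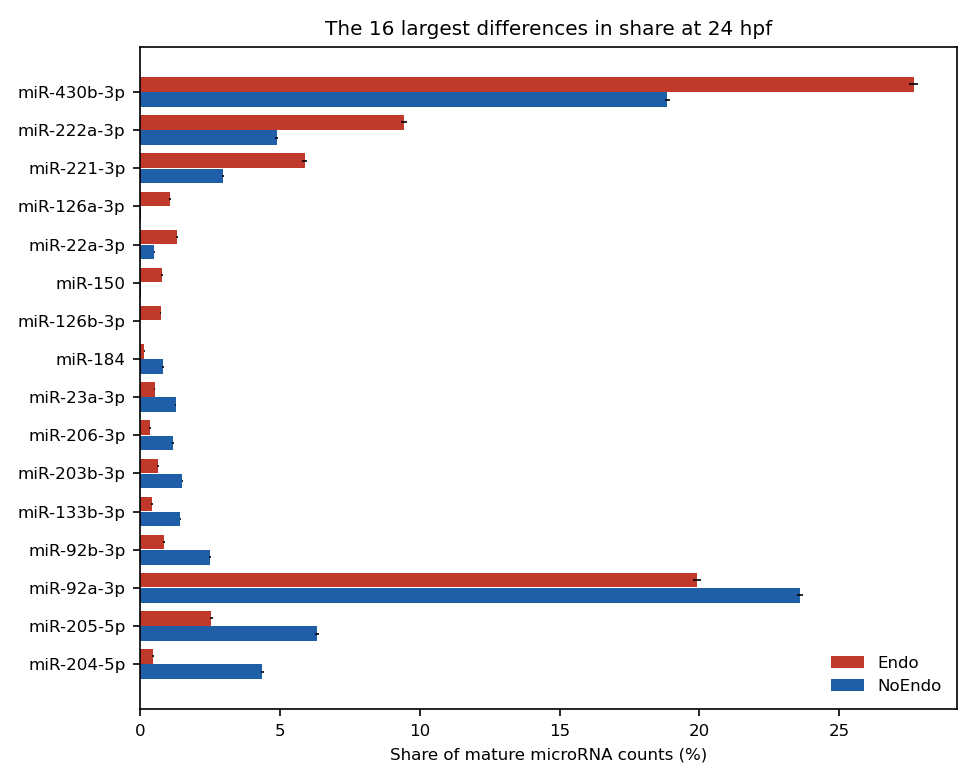
Shares of mature microRNA counts (%, linear axis from 0) in Endo (red, upper bar) and NoEndo (blue, lower bar) at 24 hpf for the 16 microRNAs whose share differs most. miR-430b-3p reaches 27.7% in Endo against 18.9% in NoEndo, while miR-204-5p is at 0.460% against 4.36%. Each bar is 1 library.

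Past 4-fold, which is taken here as set apart, 15 of the 228 microRNAs were higher in Endo (6.58%) and 22 were lower (9.65%), while 139 (61%) were within 2-fold. Past 2-fold in either direction were 89 (39%), 26 higher (11.4%) and 63 lower (27.6%). The 15 held 3.09% of Endo and 0.101% of NoEndo counts, the 22 held 0.713% of Endo and 5.65% of NoEndo counts, and the 139 within 2-fold held 87.6% of Endo and 77.1% of NoEndo counts. The 139 include the abundant miR-222a-3p and miR-221-3p, which some scalings place past 2-fold. Between the 2 replicates of 1 population at 48 hpf, 9.63% of microRNAs were past 4-fold in Endo and 11.6% in NoEndo, beside the 16.2% past 4-fold in either direction between Endo and NoEndo at 24 hpf. Past 2-fold, the same replicates differed for 35.8% of microRNAs in Endo and 34.3% in NoEndo, beside the 39% at 24 hpf. At a mean of 100 CPM or more, 31.5% were past 2-fold at 24 hpf, against 30.3% between Endo and 29.5% between NoEndo replicates. Past 4-fold at that level were 10.3% at 24 hpf, 7.24% between Endo and 8.74% between NoEndo replicates. Differences past 2-fold were thus nearly as common between replicates. The replicate gaps correlated across microRNAs between both populations (r = 0.698). Those past 4-fold went mostly 1 way, 19 lower and 2 higher in Endo and 25 lower and 3 higher in NoEndo. A gap that both populations share can cancel in a ratio of Endo over NoEndo. How these shares carry over to the 24 hpf pair is therefore unknown. The SD of the log2 ratio was 1.5 between Endo and NoEndo at 24 hpf, 1.05 between the Endo replicates and 1.18 between the NoEndo replicates at 48 hpf. The log2 ratio of replicate 1 over replicate 2 at 48 hpf was -0.90 in Endo and -0.03 in NoEndo for miR-126a-3p, 0.61 in Endo and 0.31 in NoEndo for miR-150, and 0.77 in Endo and 0.05 in NoEndo for miR-204-5p, each smaller than the 24 hpf ratio of the same microRNA. The 24 hpf ratio was larger than both replicate gaps of the same microRNA for all 15 higher ones. It was larger for 17 of the 19 lower ones that had a gap value. These microRNAs were picked for large 24 hpf ratios, which favours that outcome. For miR-219-5p and miR-217, both past 4-fold lower, a gap between such replicates was larger than the 24 hpf ratio. The counting interval lay wholly past 4-fold for 6 higher and 4 lower microRNAs, and at a mean of at least 100 CPM there were 7 and 8. With DESeq2 size factors, which shift all log2 ratios by 0.30, the split was 17 higher and 13 lower. Scaled to the larger library total, a shift of -0.64, it was 7 higher and 52 lower.

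**Figure D2:**
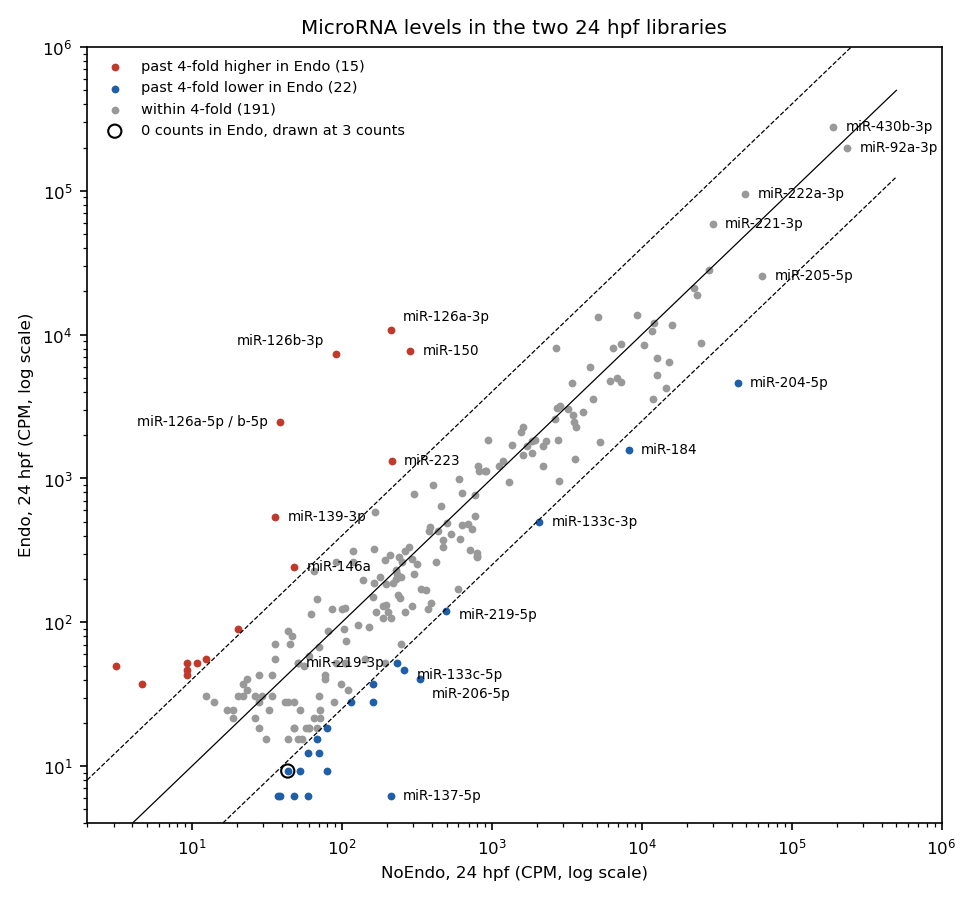
Level of each of the 228 microRNAs in Endo (vertical axis, CPM, log scale) against NoEndo (horizontal axis, CPM, log scale) at 24 hpf, with lines at equality (solid) and 4-fold each way (dashed). The miR-126 arms, miR-150 and miR-139-3p stand above the 4-fold line and miR-204-5p, miR-184 and miR-137-5p below it. An open circle marks the microRNA with 0 counts in Endo, drawn at 3 counts.

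The miR-126 family, the endothelial marker, had the largest ratios in the Endo library. miR-126b-3p had 2379 counts (7339 CPM) in Endo and 59 counts (91.8 CPM) in NoEndo, a ratio of 79.9 (61.7 to 105.3). miR-126a-3p had 3502 counts (10803 CPM) in Endo and 136 counts (212 CPM) in NoEndo, a ratio of 51.0 (43.0 to 61.0). The entry for the 5p arm, which both hairpins share, had 801 counts in Endo and 25 in NoEndo, a ratio of 63.5 (42.7 to 98.7). The ratio of miR-126a-3p was larger at every later pair, while that of miR-126b-3p at 24 hpf lay within its later range. Over the 6 later same-stage pairs (4 at 48 hpf, 1 at 72 hpf, 1 at 6 dpf), the log2 ratio of miR-126a-3p ran from 5.90 to 7.31, against 5.67 at 24 hpf, and that of miR-126b-3p from 5.45 to 7.52, against 6.32. In CPM, miR-126a-3p within Endo was lower at 24 hpf than in any later Endo library. It had 10803 CPM against 34478 and 64323 CPM at 48 hpf, 29923 CPM at 72 hpf and 12038 CPM at 6 dpf. miR-126b-3p showed another order, with 7339 CPM beside 7057 and 19362 CPM at 48 hpf, 5194 CPM at 72 hpf and 2648 CPM at 6 dpf. miR-126a-3p was thus 1.47 times miR-126b-3p in Endo at 24 hpf and 3.32 to 5.76 times in the later Endo libraries. In NoEndo that ratio was 2.31 at 24 hpf and 2.56 to 7.44 later. Levels in CPM at unlike stages are shares of unlike totals. The miR-430 family held 302222 CPM in Endo at 24 hpf and 380 CPM at 6 dpf. The order of miR-126a-3p in Endo at 24 hpf and 6 dpf, close in CPM, depends on whether that family is in the total. The same limit applies to every level compared between stages here. In Zv9, the genome build of the files, miR-126a-3p lies on the minus strand at chr8:12065968-12065988 and miR-126b-3p on the plus strand at chr11:38496011-38496032.

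miR-150, known from mature lymphocytes of mammals, was the next most set apart. It had 7752 CPM in Endo and 285 CPM in NoEndo, a ratio of 27.2 (23.4 to 31.8). This log2 ratio of 4.77 lay below all 6 later ones, which ran from 6.5 to 7.42. Endo had 7752 CPM at 24 hpf and 29967 to 61346 CPM later, and NoEndo had 285 CPM at 24 hpf and 267 to 666 CPM later. The difference between stages was not tested. miR-150 lies at chr3:32708295-32708316 on the plus strand in Zv9.

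miR-139, whose hairpin sits in an intron of the phosphodiesterase gene pde2a in mammals, was set apart through 1 arm. miR-139-3p had 174 counts (537 CPM) in Endo and 23 counts (35.8 CPM) in NoEndo, a log2 ratio of 3.91 (3.27 to 4.60), within its later range of 3.21 to 4.45. miR-139-5p had 101 counts (312 CPM) in Endo and 76 counts (118 CPM) in NoEndo, a ratio of only 2.63 (1.94 to 3.60), and its log2 ratio of 1.40 lay below the later range of 2.49 to 3.65. The 3p arm held 63.3% of the reads of both arms in Endo (exact interval 57.3% to 69.0%) and 23.2% in NoEndo (15.3% to 32.8%), so the libraries differed in arm use beyond counting error. The 2 Endo replicates at 48 hpf also differed beyond counting error, at 14.1% (13.0% to 15.4%) and 4.65% (3.94% to 5.46%). A gap beyond counting error is thus not by itself a difference between populations. In the later libraries the 3p arm was the minor one throughout, at 4.65% to 38.6% in Endo and 4.33% to 24.3% in NoEndo.

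Leukocyte microRNAs were also higher in Endo. Of 7 on the list (miR-150, miR-223, miR-142, miR-155, miR-146), 6 passed the filter. Past 4-fold were 3 of them, 1 was between 2- and 4-fold higher, and the median log2 ratio was 1.92, against -0.276 over all 228. Of all 228, 6.58% were past 4-fold higher and 11.4% past 2-fold higher. miR-223, of the neutrophil and monocyte lineage, had 1327 CPM in Endo and 215 CPM in NoEndo, a ratio of 6.18 (5.09 to 7.54). miR-146a, which dampens innate immune signalling in mammals, had 78 counts in Endo and 31 in NoEndo, a ratio of 4.99 (3.25 to 7.83). Its later log2 ratios took both signs, from -1.73 to 2.46, and those of miR-223 ran from 0.57 to 3.30, so neither was past 2-fold at every later pair. miR-146b was 2.86-fold higher. miR-142a-3p, a marker of all blood cells, had 23 counts in Endo and 29 in NoEndo, a ratio of 1.57 (0.869 to 2.81). miR-155 had 23 counts in each library, which at the lower depth of Endo is a higher level there, just within 2-fold. miR-142a-5p was at 0 in both. Summed, the list reached 9724 CPM in Endo and 721 CPM in NoEndo, most of it miR-150. miR-451, the red cell microRNA, was near equal, with 201 CPM in the Endo and 230 CPM in the NoEndo library. What part blood cells had in the miR-150 and miR-223 ratios was not tested.

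Among the other microRNAs past 4-fold higher, counts were small. miR-187 had 15 counts in Endo and 6 in NoEndo, a ratio of 4.96 (1.82 to 15.6), and miR-132-3p, linked to vessel growth in mammals, had 16 counts in Endo and 2 in NoEndo, a ratio of 15.9 (3.73 to 142.2). The rest, named here after their values were seen, were miR-125c-3p, miR-7147, miR-734, miR-458-3p, let-7d-5p and miR-22b-3p, at 37.0 to 89.5 CPM in Endo. miR-187, miR-132-3p, miR-125c-3p and let-7d-5p were under 20 CPM in NoEndo, so they passed the filter through Endo and had to be higher. The same holds for any of the others under 20 CPM in NoEndo. Just under 4-fold at 100 CPM or more stood miR-724 (log2 1.81), miR-338 (1.80) and miR-125a (1.58). miR-125a was the abundant one, with 8049 CPM in Endo and 2689 CPM in NoEndo.

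In the list of other vascular microRNAs (miR-139, miR-221, miR-222, miR-23, miR-24, miR-27, miR-210, miR-132, miR-218, miR-21), 23 of 26 passed the filter. Of those, 2 were past 4-fold higher, 2 were 2- to 4-fold higher, 14 were within 2-fold, 4 were 2- to 4-fold lower and 1 was past 4-fold lower. Among all 228 microRNAs, 6.58% were past 4-fold higher, 61% within 2-fold and 27.6% past 2-fold lower. By these counts the list was close to microRNAs as a whole. Of the 2 past 4-fold higher, miR-132-3p was under 20 CPM in NoEndo and had to be higher. The 1 past 4-fold lower, miR-27c-3p, was under 20 CPM in Endo and had to be lower. The median log2 ratio of 0.26 was close to 0 and turned to -0.38 when scaled to the larger library total. The list as a sum was 1.61 times as high in Endo, 17.6% against 10.9% of counts, carried by miR-222a-3p and miR-221-3p. Both are among the 14 within 2-fold here, and past 2-fold with DESeq2 size factors. The hypoxia microRNA miR-210-3p was 2.22-fold higher (1.87 to 2.63).

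Of 11 members above the filter of miR-23, miR-24 and miR-27, families that support vessel growth in mammals, 9 had a ratio below 1 at 24 hpf and 2 above it, miR-27d (log2 0.78, on 13 counts in Endo and 15 in NoEndo) and miR-27e (0.40, on 8 counts in Endo and 12 in NoEndo). Those 2 were lower in Endo at every later pair, from -2.03 to -0.48 for miR-27d and from -3.02 to -1.64 for miR-27e. The median log2 ratio over all 228 at 24 hpf was -0.276, so a ratio below 1 was common among microRNAs as a whole. Near a ratio of 1, miR-27b-3p and miR-23a-5p turn above it with DESeq2 size factors or with miR-430 left out of the total, and miR-27e turns below it when scaled to the larger library total. miR-23a-3p had 5251 CPM in Endo and 12746 CPM in NoEndo at 24 hpf, a log2 ratio of -1.28. At the later pairs its log2 ratio ran from 0.96 to 1.35. miR-23b had 4677 CPM in Endo and 7235 CPM in NoEndo, a log2 ratio of -0.63, and was the 1 microRNA that was within 2-fold at 24 hpf and past 2-fold higher at every later pair, from 1.39 to 1.87. Its level in Endo was 4677 CPM at 24 hpf and 29269 to 52379 CPM in the 4 later libraries, and in NoEndo 7235 CPM at 24 hpf and 10997 to 17786 CPM later. miR-24 had 2773 CPM in Endo and 3458 CPM in NoEndo, a log2 ratio of -0.32, and later ratios from 0.24 to 2.05. Scaled to the larger library total, all 3 later ranges reached below 0, so their switch of side depends on the scaling. miR-23a-3-5p, at 21.6 CPM in Endo, against 71.6 CPM in NoEndo, was past 2-fold lower at 24 hpf and past 2-fold higher at every later pair. miR-27c-3p was 9.59-fold lower on 2 counts in Endo and 38 in NoEndo (interval 2.48 to 82.0), with later log2 ratios from -1.85 to 2.98. The more abundant miR-27b-3p was at 494 CPM in Endo, against 501 CPM in NoEndo, with later log2 ratios from -0.06 to 1.55.

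Eye microRNAs had the lowest list median in Endo, at -2.38 on the log2 scale. Of 4 listed, 3 passed the filter and all were past 4-fold lower, where 9.65% of all microRNAs were. One of them, miR-204-3p, is the other arm of miR-204, with 4 counts in Endo and 38 in NoEndo. It was under 20 CPM in Endo, so it passed the filter through NoEndo and had to be lower. miR-204-5p, of the lens and retinal pigment epithelium, had 1491 counts (4600 CPM) in Endo and 28046 counts (43649 CPM) in NoEndo, a 9.49-fold lower level (log2 -3.25, interval -3.32 to -3.17). miR-184, of the lens and cornea, had 510 counts (1573 CPM) in Endo and 5264 counts (8193 CPM) in NoEndo, 5.21-fold lower (4.75 to 5.71). Their later courses were unlike. miR-184 stayed lower, with log2 ratios of -3.99 to -3.16 against -2.38 at 24 hpf, whereas miR-204-5p ran from -1.62 to 0.27 against -3.25. In NoEndo miR-204-5p ranged from 29085 to 43649 CPM over all stages. In Endo it was at 4600 CPM at 24 hpf and 13293 to 35101 CPM later.

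Muscle microRNAs were lower in Endo at 24 hpf. All 11 of 12 listed members that passed the filter were past 2-fold lower, 4 of them past 4-fold, where 27.6% of all microRNAs were past 2-fold lower. Their median log2 ratio was -1.73. miR-206-3p, of skeletal muscle, had 3569 CPM in Endo and 11813 CPM in NoEndo, 3.31-fold lower (3.11 to 3.52). miR-133b-3p, from the same cluster, had 4270 CPM in Endo and 14461 CPM in NoEndo, 3.39-fold lower (3.20 to 3.59). miR-206-5p, on 13 counts in Endo and 212 in NoEndo, was 8.23-fold lower (4.71 to 15.7). The summed list was at 10427 CPM in Endo, against 34849 CPM in NoEndo at 24 hpf, a log2 ratio of -1.74. Later sums ran from -1.47 to -0.24, and only miR-499-5p, a cardiac and slow muscle microRNA, was past 2-fold lower at every later pair. The miR-133a-2-5p and miR-133a-5p entries have the same log2 ratio of -1.38 and are not independent.

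Neural microRNAs were mixed. Of 31 listed, 22 passed the filter, 5 past 4-fold lower, 4 between 2- and 4-fold lower and 13 within 2-fold, with a median log2 ratio of -0.80. The shares over all 228 were 9.65% past 4-fold lower, 27.6% past 2-fold lower and 61% within 2-fold, so the last count was near that of all microRNAs. The lowest ratio was that of miR-137-5p, from a neuronal microRNA gene, with 2 counts (6.17 CPM) in Endo and 136 counts (212 CPM) in NoEndo. It was 34.3-fold lower (9.32 to 286.1), beside later log2 ratios of -2.99 to -1.97. Its Endo count is under the limit of 3 counts, so the size of this ratio is uncertain. Being under 20 CPM in Endo, it passed the filter through NoEndo and had to be lower. The other arm, miR-137-3p, had 8 counts in Endo and 46 in NoEndo, a smaller difference. miR-124-5p, of differentiated neurons, was 5.77-fold lower (2.93 to 13.0) on 9 counts in Endo and 103 in NoEndo. miR-219-5p and miR-219-3p, known from oligodendrocytes in mouse, were 4.14-fold and 4.42-fold lower in Endo. The remaining one past 4-fold lower, miR-34c-3p, had a mean under 100 CPM. By contrast, miR-9-5p, of neural progenitors, was near equal with 336 CPM in Endo and 476 CPM in NoEndo, a log2 ratio of -0.50, against -3.92 to -1.43 later. The NoEndo level of miR-9-5p was 476 CPM at 24 hpf and 1512 to 39444 CPM later. miR-138-5p, needed for heart patterning in zebrafish and also neural, was at 2119 CPM in Endo, against 1561 CPM in NoEndo. miR-34a had 0 counts in Endo and 17 in NoEndo, and miR-34b had 0 in Endo and 2 in NoEndo.

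Epithelial microRNAs were lower in Endo, most of them by less than 4-fold. Of 16 listed, 11 passed the filter, 2 past 4-fold lower, 8 between 2- and 4-fold lower and 1 within 2-fold, with a median log2 ratio of -1.53. For comparison, 9.65% of all 228 microRNAs were past 4-fold lower and 27.6% past 2-fold lower. miR-205-5p, of stratified epithelium, had 25423 CPM in Endo and 63227 CPM in NoEndo, 2.49-fold lower (2.43 to 2.55), and its log2 ratio of -1.31 compares with -4.58 to -2.44 later. The skin microRNA miR-203b-3p was 2.36-fold lower (2.25 to 2.47), and miR-200b-3p, which keeps cells epithelial, was 2.92-fold lower (2.59 to 3.30), against later log2 ranges of -5.13 to -1.75 and -4.38 to -2.87. The summed list was at 34600 CPM in Endo, against 85944 CPM in NoEndo at 24 hpf. In Endo that sum was 7089 to 16622 CPM later, below the 24 hpf value in each of the 4 libraries, while in NoEndo it was 72972 to 296309 CPM. The NoEndo sum at 24 hpf was below that of 3 of the 4 later NoEndo libraries. miR-141-5p and miR-200c-5p were at 0 in both libraries at 24 hpf, and miR-205-3p had 0 counts in Endo and 5 in NoEndo. What part other sorted cells had in the epithelial level of Endo was not tested. The miR-200b, miR-200a and miR-429a hairpins lie at chr23:24358924-24360769 on the plus strand in Zv9, with log2 ratios from -1.55 to -0.53 among their arms, and the miR-200c and miR-429b hairpins at chr6:40584015-40587102 on the minus strand, from -3.10 to -2.05. miR-200c-3p and miR-429b, the 2 past 4-fold lower, had means under 100 CPM, and neither interval lay wholly past 4-fold. miR-429b was under 20 CPM in Endo, so it passed the filter through NoEndo and had to be lower.

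Liver and gut microRNAs were not lower in Endo at 24 hpf. miR-192, of the gut, had 96 counts (296 CPM) in Endo and 134 counts (209 CPM) in NoEndo, a ratio of 1.42 (1.08 to 1.86), and the adjacent miR-194a had 14 counts in Endo and 18 in NoEndo, a ratio of 1.54 (0.710 to 3.28). At the later pairs miR-192 was lower in Endo throughout, with log2 ratios of -4.18 to -1.97, with an Endo level of 296 CPM at 24 hpf and 116 to 270 CPM later, and a NoEndo level of 209 CPM at 24 hpf and 564 to 4900 CPM later. Both hairpins lie at chr10:27698681-27698882 on the plus strand in Zv9. miR-122 of hepatocytes, with 7 counts in Endo and 6 in NoEndo, was under the filter. Scaled to the larger library total, the log2 ratio of miR-192 turned to -0.13.

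Pancreas and sensory lists stood between these groups. Beside the counts below, 27.6% of all 228 microRNAs were past 2-fold lower, 9.65% past 4-fold lower and 61% within 2-fold. The 3 pancreas members above the filter were all past 2-fold lower, with miR-375 of islets at 302 CPM in Endo, against 797 CPM in NoEndo (2.64-fold lower, 2.12 to 3.31) and miR-217 of the exocrine pancreas at 4.37-fold lower (2.40 to 8.73). Of the 3 members of the miR-183 cluster, which hair cells and photoreceptors express, 1 was past 4-fold lower, miR-183-5p, on 2 counts in Endo and 25 in NoEndo, and 1 was within 2-fold. In the mesenchyme and smooth muscle list, 5 of 9 members were within 2-fold and 4 were 2- to 4-fold lower, with a median log2 ratio of -0.99. miR-140-3p of cartilage reached 444 CPM in the Endo and 739 CPM in the NoEndo library. The miR-135 family, 4 members of low level, was lower throughout with a median of -2.17, 3 of them past 4-fold. Together the 4 had only 15 counts in Endo and 157 in NoEndo. All 4, like miR-183-5p, were under 20 CPM in Endo, so they passed the filter through NoEndo and had to be lower. Of the 4, miR-135b-3p had 0 counts in Endo and 28 in NoEndo, at least 4.71-fold lower when the limit of 3 counts is taken for Endo.

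**Figure D3:**
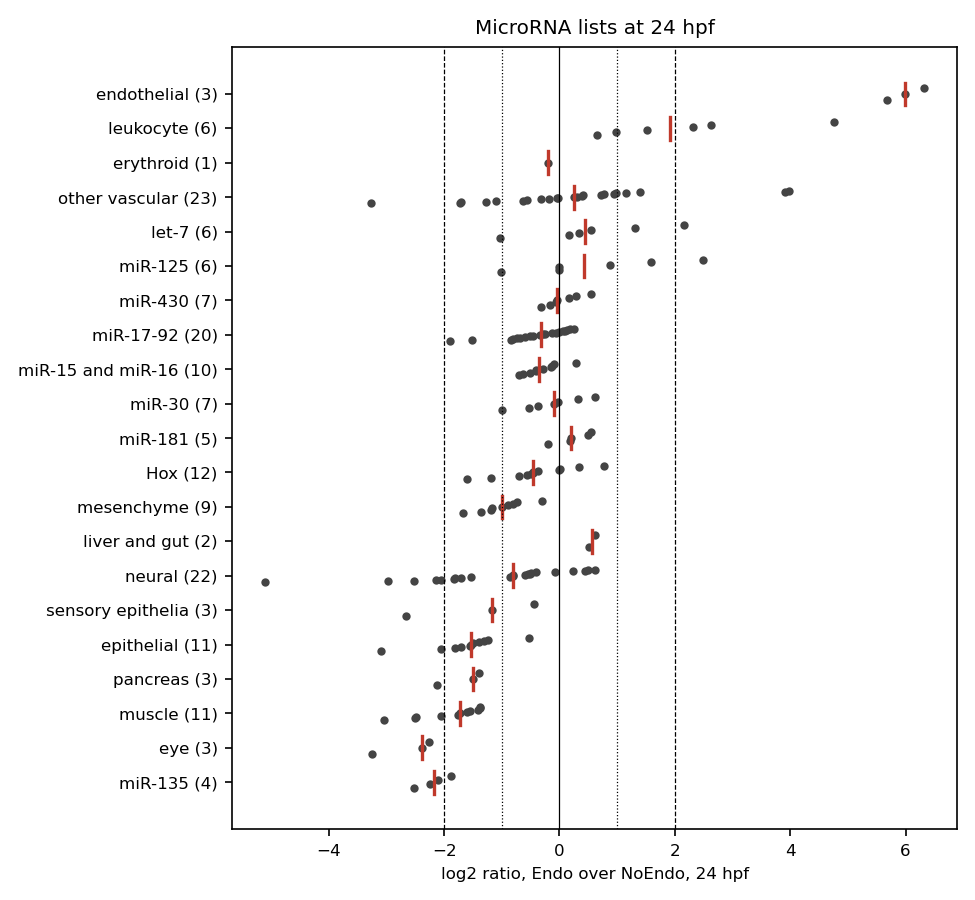
Log2 ratio of Endo over NoEndo at 24 hpf for each microRNA above the filter, by list, with the list's median as a bar. The miR-126 list lies above 5, the leukocyte list above 0, and the eye, muscle and pancreas lists below -1, while the miR-430 list lies between -1 and 1. The axis is in log2 units and each point is 1 microRNA.

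Several broadly expressed families were near equal, others were mixed, where 61% of all 228 microRNAs were within 2-fold. All 7 miR-430 members above the filter were within 2-fold, with a median log2 ratio of -0.05, although miR-430b-3p lifted the summed share to 30.2% in Endo against 21.5% in NoEndo. That sum had a log2 ratio of 0.49, which turned to -0.15 when scaled to the larger library total. Of 20 miR-17-92 members, 18 were within 2-fold, and both arms of miR-92b were 2- to 4-fold lower. Of 12 members of the Hox-cluster families miR-10 and miR-196, which lie among the genes that pattern the body axis, 10 were within 2-fold. Every member above the filter was within 2-fold in the miR-99 and miR-100, miR-15 and miR-16, miR-26, miR-30, miR-181 and fish hypoxia (miR-462, miR-731) lists, and the 1 miR-29 member was at log2 0.99. The miR-125 list had 3 of 6 within 2-fold, 1 past 4-fold higher, 1 between 2- and 4-fold higher and 1 between 2- and 4-fold lower. Of 4 miR-103 and miR-107 members, 1 was within 2-fold, 2 were 2- to 4-fold higher and 1 was past 4-fold lower. In the list of miR-130, miR-301 and miR-454, 7 of 10 were within 2-fold and 3 were 2- to 4-fold lower, in that of miR-25, miR-92 and miR-363 it was 6 and 2 of 8, and in that of miR-148 and miR-152 it was 1 and 1 of 2. The let-7 family, which marks differentiated cells, was low in both libraries, at 673 CPM in Endo, against 593 CPM in NoEndo, against 11418 to 26683 CPM in the later Endo and 7646 to 17055 CPM in the later NoEndo libraries. Of its 6 members above the filter, 3 were within 2-fold, 1 was past 4-fold higher, 1 was 2- to 4-fold higher and 1 was 2- to 4-fold lower. let-7e was the member later past 2-fold higher at every pair (log2 2.57 to 4.02), and at 24 hpf it had only 10 counts in Endo and 8 in NoEndo, a ratio of 2.48 (0.880 to 7.22). Near equal does not mean unchanged, since the interval excluded a ratio of 1 for 72 of the 139 microRNAs within 2-fold.

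Set beside the later stages, 11 of the 228 microRNAs (4.82%) were past 2-fold higher in Endo at every later pair and 37 (16.2%) past 2-fold lower. Of the 11, 7 were already past 4-fold at 24 hpf: the 3 miR-126 entries, miR-150, miR-139-3p, miR-125c-3p and miR-187. A further 2 were partly there (miR-139-5p and let-7e, between 2- and 4-fold), miR-23b was not, and miR-23a-3-5p stood on the other side. Of the 11, miR-125c-3p, miR-187 and let-7e were under 20 CPM in NoEndo, so they passed the filter through Endo and had to be higher. Of the 37, 14 were already past 4-fold lower, 11 were between 2- and 4-fold lower, and 12 were within 2-fold. Of the 14, only miR-184 and miR-137-5p had a mean of 100 CPM or more, and only these 2 had a counting interval wholly past 4-fold. Those of the 14 under 20 CPM in Endo passed the filter through NoEndo and had to be lower. miR-135b-3p, miR-135b-5p, miR-135c, miR-183-5p, miR-204-3p, miR-429b and miR-137-5p were among them. The count of 14 thus rests in large part on the filter. The 11 in between included 7 epithelial microRNAs, miR-375 and miR-499-5p. Of the 12 within 2-fold, 7 had a mean of 100 CPM or more, namely miR-192, miR-2188-5p, miR-9-5p, miR-200a-3p, miR-140-3p, miR-9-3p and miR-455-3p. Conversely, 8 of the 15 higher and 8 of the 22 lower microRNAs at 24 hpf were not past 2-fold at every later pair on the same side, miR-223, miR-146a, miR-204-5p, miR-206-5p and miR-219-5p among them. These classes place 1 pair of libraries beside 6, and no difference between stages was tested.

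**Figure D4:**
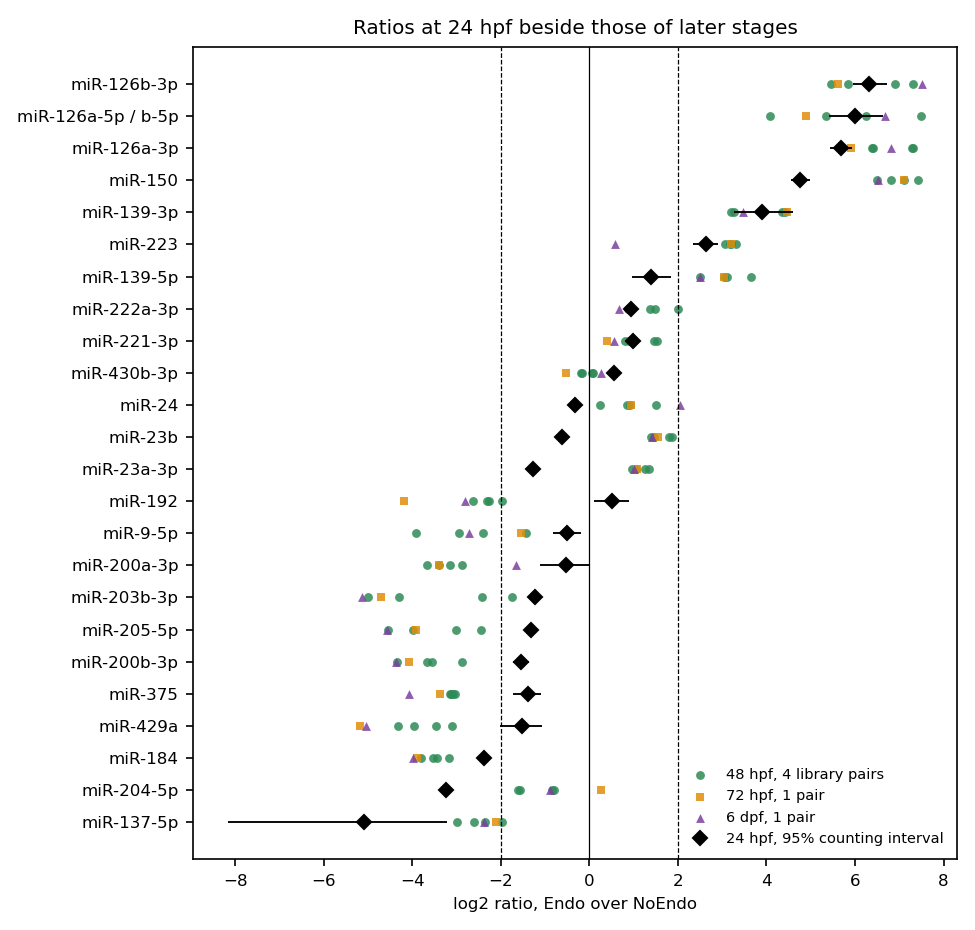
Log2 ratio of Endo over NoEndo (horizontal axis) for selected microRNAs at 24 hpf (black diamonds, with the 95% counting interval) and at the 6 later same-stage pairs (coloured marks by stage). miR-126a-3p is at 5.67 at 24 hpf beside 5.90 to 7.31 later, miR-205-5p at -1.31 beside -4.58 to -2.44, and miR-23b at -0.63 beside 1.39 to 1.87.

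The overlap in composition was larger at 24 hpf than at any later pair. The shared content of 77.5% at 24 hpf compares with 63.1% to 69.8% for the 4 pairs at 48 hpf, 61.9% at 72 hpf and 69.4% at 6 dpf. For scale, replicates of 1 population at 48 hpf shared 85.4% (Endo) and 75.0% (NoEndo), the latter below the 77.5% of the 24 hpf pair. The miR-430 family weighs on these values, with 302222 CPM in Endo and 215027 CPM in NoEndo at 24 hpf. At 48 hpf it held 32300 and 37410 CPM in Endo and 35792 and 34646 CPM in NoEndo, and less later. The overlap without that family was not computed. The share of microRNAs past 4-fold was 16.2% at 24 hpf and 23.1% to 44.1% at the later pairs. Both ends of that range came from 48 hpf pairs of unlike replicate number. The 48 hpf pairs of 1 replicate number gave 32.0% and 29.1%, the 72 hpf pair 30.1% and the 6 dpf pair 31.2%. The pair at 24 hpf shares no library with the later pairs, but those at 48 hpf share libraries with each other.

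**Figure D5:**
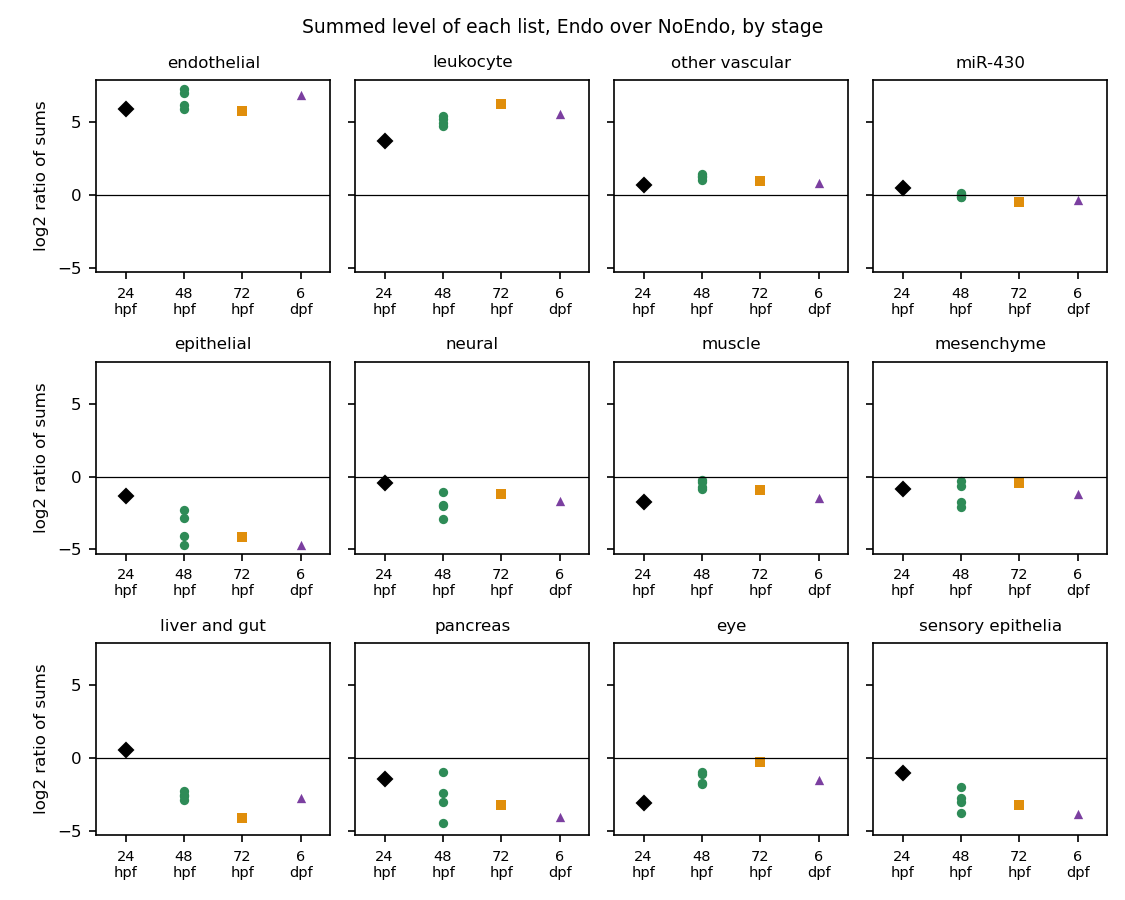
Log2 ratio of the summed level of each list, Endo over NoEndo (vertical axis), by stage (24, 48 and 72 hpf and 6 dpf), 1 panel a list and 1 point a pair of libraries. The miR-126 sum is at 5.91 at 24 hpf and 5.76 to 7.32 later, the epithelial sum at -1.31 and -4.70 to -2.30, the eye sum at -3.07 and -1.80 to -0.30, and the liver and gut sum at 0.54 and -4.15 to -2.27.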

How the data were processed

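Per the labels' protocols, RNA from FACS-sorted cells was made into Illumina TruSeq libraries. Per the submitters' processing notes, STAR 2.3.0 and the build Zv9 were used. Trimming, annotation and counting program were not given in the sources used. The deposited read count is a whole number of reads per genomic copy of a mature microRNA. The deposited expected count, adjusted for multiple mapping per the file headers, was summed by name and rounded. The deposited RPM signal columns served only to recover both library totals.

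Ratios are Endo over NoEndo in CPM of summed expected counts, with exact intervals (scipy 1.17.1) checked on simulated counts. With 1 library a side no test was made. Scaling alternatives used edgeR 4.0.16 (TMM) and DESeq2 1.42.0 (size factors). Counts of near-identical members (of let-7, miR-430, miR-23 and miR-133, for example) are uncertain between members. Members and lists were chosen with earlier results of these data known. At 100 CPM or more, named microRNAs were the 15 largest ratios past 4-fold each way, the 10 most abundant per library, 8 per class and direction, and the 3 nearest 4-fold on each side, plus list members. The replicate gaps of single microRNAs and the direction of lists under each scaling were added after the data were seen. Sequences were not used here.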

Additional observations from a re-analysis of the deposited data

Results flagged for a closer look

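Antisense reads lie outside the measurement used above. They amounted to 6.0 counts over 4 names in Endo and 1.0 count in NoEndo at 24 hpf, which is 18.5 CPM of the sense counts in Endo and 1.56 CPM in NoEndo.

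At a mean of 100 CPM or more, 12 microRNAs had a ratio at 24 hpf whose counting interval excluded 1 while all 6 later pairs stood on the other side of 1. None of these differences between stages was tested. Higher at 24 hpf and lower later in Endo were miR-192 (log2 0.51), miR-455-2-5p (0.48), miR-130b (0.43), miR-152 (0.31) and miR-181b-5p (0.18). Lower at 24 hpf and higher later were miR-15c (-0.29), miR-24 (-0.32), miR-16b (-0.41), miR-16a (-0.52), miR-30c-3p (-0.52), miR-23b (-0.63) and miR-23a-3p (-1.28). With TMM scaling 10 of the 12 kept opposite signs, with DESeq2 size factors 8, and scaled to the larger library total 0.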

How the results depend on the processing

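As given, 15 microRNAs were past 4-fold higher and 22 lower, 7 were already higher and 14 already lower in the sense used above, and 1 was not yet higher and 12 not yet lower. For the filter and fold rules below, only the larger moves are given, so a count left out may also have moved. Under TMM scaling 8 were already higher, 13 already lower, 3 not yet higher and 8 not yet lower. With miR-430 left out of the total, 15 were past 4-fold higher, 15 lower and 10 already lower. With DESeq2 size factors 17 were past 4-fold higher and 13 lower, 10 already higher and 7 already lower, and 3 not yet higher and 9 not yet lower. Scaled to the larger library total, 7 were past 4-fold higher, 52 lower, 36 already lower, 2 not yet higher and 24 not yet lower. A filter of 100 CPM left 7 and 8 past 4-fold, 2 already lower and 7 not yet lower. With the whole interval past 4-fold the counts were 6 higher, 4 lower and 2 already lower, and with an 8-fold rule 6, 5 and 2. With the identical 72 hpf file used as Endo, 0 were not yet higher. Leaving out each later library in turn gave 1 to 3 not yet higher, 7 to 8 already higher, 14 to 15 already lower and 12 to 17 not yet lower. The replicate block (48 hpf pairs of 1 replicate number only) gave 3 not yet higher. The samples share only a number, and replicate gaps at 48 hpf correlated across microRNAs between populations (r = 0.698, 2 pairs of libraries). The miR-126 entries, miR-150 and miR-139-3p stayed already higher under every alternative run, while miR-125c-3p and miR-187 did not under the larger total, the 100 CPM filter, the interval rule and the 8-fold rule, nor did miR-125c-3p with the identical 72 hpf file used as Endo. The causes were not tested. Depth limits the low microRNAs, since 8 of the 228 had at most 3 counts in Endo and 2 in NoEndo.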
